A study of Homo sapiens with 9 samples.

Results

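The genes described here carry antigen presentation by MHC class I: the heavy chains HLA-B, HLA-C and HLA-E, the light chain B2M, the peptide transporter genes TAP1 and TAP2, the loading chaperone TAPBP, and the immunoproteasome subunits PSMB8 and PSMB9. They were chosen by name from class I biology, with the values of these libraries already known, so their levels and fold changes are given as a description with no test. All 9 were found among the 15436 genes of the deposited table, and all 9 passed the filter on low values that left 11346 genes for testing. The study measured RNA in 9 libraries of Raji, a human B-cell line established from a Burkitt lymphoma, and all libraries come from that cell line only. There were 3 groups of 3 libraries: cells treated with hydroxyurea (HU), cells treated with thymidine and nocodazole (Thy-Noc), and control cells given DMSO. Hydroxyurea blocks ribonucleotide reductase and slows DNA replication, thymidine in excess also stalls DNA synthesis, and nocodazole disrupts microtubules and holds cells in mitosis. The labels give no dose and no duration, and nothing in them says that replicates came from separate cultures, so the spread between replicates may be technical. The series' title places the comparison in a study of replication stress in Burkitt lymphoma cells.

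MHC class I molecules display short peptides from the inside of a cell to CD8+ T cells. The proteasome cuts proteins into peptides, TAP carries them into the endoplasmic reticulum, and tapasin, the product of TAPBP, holds an empty class I molecule beside TAP until a peptide binds. A heavy chain reaches the surface stably only with beta-2-microglobulin, the product of B2M. Interferons raise many of these genes together through interferon response elements, and NF-kappa B sites and a set of conserved boxes contribute to the heavy chain and B2M promoters. In B cells class I is present at rest, and its loss is a known route of immune escape in B-cell lymphomas.

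Of the 9 genes, 8 lie on chromosome 6 and B2M lies on chromosome 15. In GENCODE release 29 on GRCh38, TAP1 (ENSG00000168394) spans chr6:32845209-32853978 on the minus strand, and PSMB9 (ENSG00000240065) spans chr6:32844136-32859585 on the plus strand, across the whole of TAP1. PSMB8 (ENSG00000204264) spans chr6:32840717-32844703 and TAP2 (ENSG00000204267) spans chr6:32821833-32838780, both on the minus strand. TAPBP (ENSG00000231925) lies farther along the same chromosome at chr6:33299694-33314387 on the minus strand. HLA-C (ENSG00000204525) spans chr6:31268749-31272130 and HLA-B (ENSG00000234745) spans chr6:31269491-31357188, both on the minus strand, and HLA-E (ENSG00000204592) spans chr6:30489467-30494205 on the plus strand. B2M (ENSG00000166710) spans chr15:44711487-44718877 on the plus strand. All 9 are annotated as protein coding.

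The promoters of 5 of these genes are shown because they set TAP1, TAPBP and HLA-B, genes with every HU library above all others, beside neighbours that lack that pattern, PSMB9 next to TAP1 and HLA-C next to HLA-B. Each is the RefSeq window on GRCh38.p14 from 250 bases before to 50 bases after the annotated start, written on the gene's own strand. Capitals mark matches, on either strand, to 4 motifs: GAAANNGAA (an interferon response element core), GGGANTNNC (a kappa B core), TGACGT (an X2 box core) and CCAAT (a Y box core). The windows are TAP1 at chr6:32853655-32853954, PSMB9 at chr6:32853942-32854241, TAPBP at chr6:33314029-33314328, HLA-B at chr6:31357130-31357429 and HLA-C at chr6:31272043-31272342.
TAP1: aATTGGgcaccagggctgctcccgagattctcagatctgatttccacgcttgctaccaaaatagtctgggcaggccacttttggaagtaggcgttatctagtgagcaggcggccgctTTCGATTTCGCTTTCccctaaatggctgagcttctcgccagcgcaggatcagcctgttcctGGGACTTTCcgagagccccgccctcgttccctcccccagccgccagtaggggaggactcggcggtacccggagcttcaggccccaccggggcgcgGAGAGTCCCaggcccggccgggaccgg
PSMB9: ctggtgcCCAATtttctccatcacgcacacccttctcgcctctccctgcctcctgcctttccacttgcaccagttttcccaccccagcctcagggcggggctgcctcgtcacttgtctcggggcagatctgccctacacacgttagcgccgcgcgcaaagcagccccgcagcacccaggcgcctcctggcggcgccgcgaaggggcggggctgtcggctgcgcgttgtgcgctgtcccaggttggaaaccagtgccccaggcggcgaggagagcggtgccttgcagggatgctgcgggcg
TAPBP: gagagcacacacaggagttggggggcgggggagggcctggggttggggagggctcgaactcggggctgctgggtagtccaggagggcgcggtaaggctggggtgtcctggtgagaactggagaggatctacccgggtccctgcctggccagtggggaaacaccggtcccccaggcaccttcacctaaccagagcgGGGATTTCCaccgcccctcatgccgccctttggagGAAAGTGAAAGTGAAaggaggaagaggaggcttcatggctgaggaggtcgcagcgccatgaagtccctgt
HLA-B: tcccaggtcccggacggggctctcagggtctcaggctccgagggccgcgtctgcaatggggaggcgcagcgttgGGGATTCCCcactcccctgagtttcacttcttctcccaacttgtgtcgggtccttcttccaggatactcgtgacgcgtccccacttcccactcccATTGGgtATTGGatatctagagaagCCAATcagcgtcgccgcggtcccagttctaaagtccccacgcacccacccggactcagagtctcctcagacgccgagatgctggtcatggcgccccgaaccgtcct
HLA-C: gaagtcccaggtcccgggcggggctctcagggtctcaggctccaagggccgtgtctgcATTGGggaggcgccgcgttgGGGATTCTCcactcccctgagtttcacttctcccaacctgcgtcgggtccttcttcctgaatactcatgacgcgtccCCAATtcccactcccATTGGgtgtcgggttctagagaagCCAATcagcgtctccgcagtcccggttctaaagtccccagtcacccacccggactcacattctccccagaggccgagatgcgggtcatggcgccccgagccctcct

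The TAP1 and PSMB9 start sites lie 488 bases apart on opposite strands, and their windows share 13 bases. The interferon response element and kappa B matches of TAP1 at -133, -127 and -72 lie between these start sites. They fall beyond the 250 bases taken before the PSMB9 start. The windows therefore do not show that PSMB9 lacks these matches farther upstream. The HLA-B and HLA-C windows are identical at 269 of 304 aligned positions, or 88.5%. RefSeq windows were matched for 8 of the 9 genes, all but HLA-E, with 10 windows in all, since TAP1 and PSMB8 have 2 each. A match in either window of TAP1 or PSMB8 counts for the gene, so counts of genes and shares of windows are unlike measures. The interferon response element core was found in windows of 5 of these 8 genes (B2M, TAP1, TAP2, TAPBP and PSMB8), and in 8.11% of all 35116 promoter windows of the table. TAP1, TAPBP and B2M carry the core as an overlapping pair, visible in the TAP1 and TAPBP sequences as their longest runs of capitals. The kappa B core was found in 6 of the 8 genes (HLA-B, HLA-C, B2M, TAP1, TAPBP and PSMB8) and in 15.4% of all windows. The Y box core was found in HLA-B, HLA-C, B2M, TAP1 and PSMB9, against 34.6% of all windows, and the X2 box core only in PSMB8 among these 8 genes, against 7.98% of all windows. These are matches of letters, with self-overlapping matches counted, and they do not show that any factor binds. Only these strings were searched, so a gene with no match may still carry a variant of the element. The HLA-B and HLA-C windows both hold tgacgc, which differs from the X2 string in its last letter and was not counted.

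Total counts ran from 74940755 to 110485145 per library, and the groups overlapped in depth. Levels are given as CPM, the count scaled to a common library size with TMM factors, in the order of replicates 1, 2 and 3. All 8 B-cell markers were measured, and their summed level ran from 1650 to 2374 CPM in HU libraries, from 1653 to 2616 in Thy-Noc libraries and from 1864 to 2328 in DMSO libraries. None of 6 T-cell and none of 4 epithelial markers is in the table. Of the fibroblast list only COL1A1 of 5 is listed, at 8.09 to 13.7 CPM in HU, 1.97 to 5.19 in Thy-Noc and 1.30 to 3.88 in DMSO libraries. Of the myeloid list 3 of 6 are listed and none passed the filter, with a summed level of 1.54 to 5.16 CPM in HU, 0.970 to 1.49 in Thy-Noc and 0.952 to 1.17 in DMSO libraries. The NK-cell list has 1 of 5 listed, below 1 CPM in every library. The part of these markers in the differences described here was not tested. These are bulk samples, so a change in the share of expressing cells and a change in RNA per cell cannot be told apart.

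Against DMSO, 4 of the 9 genes passed an adjusted p of 0.05 in edgeR's quasi-likelihood fit across all genes, and all 4 were higher in HU: HLA-B, HLA-E, TAP1 and TAPBP. In this comparison 2.0% of the 11346 tested genes were called higher and 3.56% were called in either direction, and since the genes were chosen with these values known, nothing is read from the count. Each of the 4 was higher in every HU library than in all 6 other libraries, a pattern held by 9.55% of tested genes. The other 5 genes fell into 2 kinds. HLA-C and PSMB8 were well expressed with overlapping groups, and B2M, TAP2 and PSMB9 differed by at least 10-fold between replicates of at least 1 group after adding 0.5 CPM. That is 3 of 9 genes, beside 16.2% of all tested genes.

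**Figure D1:**
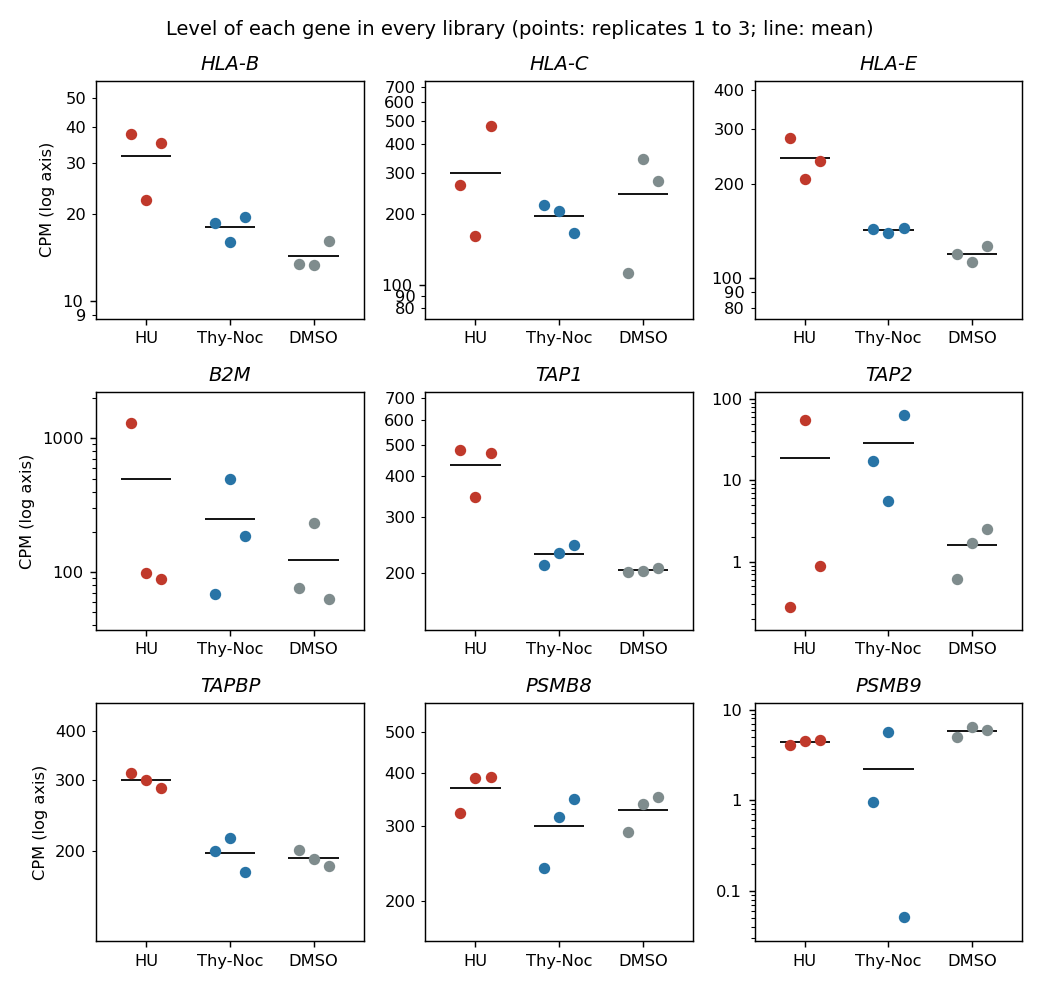
CPM on a log axis for each of the 9 genes, with 1 point per library (replicates 1 to 3 from left to right), the mean as a line, and HU, Thy-Noc and DMSO from left to right in each panel. The HU points of HLA-B, HLA-E, TAP1 and TAPBP lie above every other library, while the points of B2M and TAP2 are spread over more than a factor of 10 within the HU group.

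TAP1, a chain of the peptide transporter, had 482, 345 and 472 CPM in HU libraries, against 213, 231 and 245 CPM in Thy-Noc libraries and 203, 204 and 208 CPM in DMSO libraries. The HU libraries were high without overlap, and the DMSO libraries lay within a few CPM of each other. The level was 2.11-fold that of DMSO, a log2 fold change of 1.08 ± 0.14 (SE, n = 3 each), and 1.89-fold that of Thy-Noc. Every Thy-Noc library also lay above every DMSO library, at a log2 fold change of 0.16 ± 0.14 (SE).

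TAP2, the partner chain of TAP1, had 0.278, 56.0 and 0.877 CPM in HU libraries, against 17.3, 5.52 and 63.8 CPM in Thy-Noc libraries and 0.621, 1.70 and 2.51 CPM in DMSO libraries. A single HU library was high and the other two were below most DMSO libraries. The log2 fold change was 3.56 ± 1.94 (SE) for HU against DMSO, and it was -1.47 without HU replicate 2. All Thy-Noc libraries were above all DMSO libraries, at a log2 fold change of 4.17 ± 2.0 (SE), which did not pass the threshold. Of the exon bases of TAP2, 2064 of 6390, or 32.3%, are shared with ENSG00000250264 on the same strand, so reads there could be assigned to either. That gene had 3.38, 1.91 and 0.296 CPM in HU libraries, 2.76, 5.06 and 1.12 CPM in Thy-Noc libraries and 3.89, 1.29 and 1.37 CPM in DMSO libraries, at most 5.06 CPM in any library.

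TAPBP, which encodes tapasin, had 314, 301 and 287 CPM in HU libraries, against 199.8, 215 and 177 CPM in Thy-Noc libraries and 200.3, 191 and 183 CPM in DMSO libraries. Its replicates were close together and the HU group stood apart. The level in HU was 1.57-fold that of DMSO, a log2 fold change of 0.65 ± 0.09 (SE), and 1.52-fold that of Thy-Noc. Thy-Noc and DMSO libraries overlapped, at a log2 fold change of 0.05 ± 0.09 (SE).

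HLA-E, a class I molecule that mainly presents leader peptides of other class I chains and is recognised by NKG2A on NK cells, had 282, 207.5 and 237.5 CPM in HU libraries, against 143, 139.8 and 144.6 CPM in Thy-Noc libraries and 119.7, 112 and 127 CPM in DMSO libraries. The 3 groups did not overlap and were ordered HU, Thy-Noc, DMSO. The level in HU was 2.03-fold that of DMSO, a log2 fold change of 1.02 ± 0.12 (SE), and 1.70-fold that of Thy-Noc. Thy-Noc stood 0.25 ± 0.12 (SE, log2) above DMSO.

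HLA-B, a classical heavy chain, had 37.6, 22.4 and 35.0 CPM in HU libraries, against 18.7, 16.0 and 19.5 CPM in Thy-Noc libraries and 13.5, 13.3 and 16.1 CPM in DMSO libraries. Its lowest HU library, replicate 2, was only a few CPM above the highest Thy-Noc library. The level in HU was 2.21-fold that of DMSO, a log2 fold change of 1.15 ± 0.22 (SE), and 1.75-fold that of Thy-Noc, a difference called by DESeq2 and not by edgeR. HLA-C, the classical heavy chain next to it, had 266, 162 and 474 CPM in HU libraries, against 218, 206 and 167 CPM in Thy-Noc libraries and 112, 343 and 278 CPM in DMSO libraries. The groups of HLA-C overlapped, and its log2 fold change between HU and DMSO was 0.30 ± 0.49 (SE), with a range of -0.19 to 0.63 over the alternative settings. HLA-B and HLA-C share 35 exon bases and long near-identical stretches, and class I genes vary between haplotypes, so the split of reads between them is uncertain. HLA-B was far lower than HLA-C in every library.

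B2M had 1312, 97.7 and 88.9 CPM in HU libraries, against 68.4, 499.7 and 184 CPM in Thy-Noc libraries and 76.1, 231 and 62.4 CPM in DMSO libraries. HU replicate 1 alone was far above the rest, and the other 2 HU libraries lay within the DMSO range. The log2 fold change for HU against DMSO was 2.02 ± 1.26 (SE), and it was -0.40 without HU replicate 1. The 3 groups overlapped.

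PSMB8, the interferon-inducible subunit that takes the place of PSMB5 in the immunoproteasome, had 322, 389.5 and 393 CPM in HU libraries, against 239.7, 315.5 and 347 CPM in Thy-Noc libraries and 290.4, 339 and 352 CPM in DMSO libraries. The groups overlapped, and the log2 fold change for HU against DMSO was 0.17 ± 0.16 (SE). PSMB9, which takes the place of PSMB6, was low, with 4.05, 4.54 and 4.62 CPM in HU libraries, against 0.956, 5.62 and 0.0518 CPM in Thy-Noc libraries and 5.02, 6.38 and 5.90 CPM in DMSO libraries. Every HU library was below every DMSO library, at a log2 fold change of -0.39 ± 1.17 (SE), which did not pass the threshold. This SE rests on a spread shared by all 3 groups, and the Thy-Noc libraries differed most. It therefore does not measure the spread of the HU and DMSO libraries alone. The ratio of PSMB9 to PSMB6 was 0.4205, 0.586 and 0.589 in HU libraries, 1.19, 0.457 and 0.0195 in Thy-Noc libraries, and 0.707, 2.003 and 1.13 in DMSO libraries. The PSMB8 to PSMB5 ratio could not be read as a level, since PSMB5 stood under 1 CPM in HU replicate 3, Thy-Noc replicate 3 and DMSO replicate 2.

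TAP1 and PSMB8 are neighbours, and their ratio was taken library by library. The TAP1 to PSMB8 ratio was 1.497, 0.885 and 1.20 in HU libraries, against 0.887, 0.733 and 0.705 in Thy-Noc libraries and 0.698, 0.603 and 0.591 in DMSO libraries. All HU libraries were above all DMSO libraries in this ratio, and HU replicate 2 was level with the highest Thy-Noc library. The HLA-E to TAP1 ratio overlapped between the groups, at 0.586, 0.602 and 0.504 in HU libraries, 0.674, 0.605 and 0.591 in Thy-Noc libraries, and 0.591, 0.551 and 0.609 in DMSO libraries. These ratios compare libraries and not genes, since counts also depend on gene length.

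**Figure D2:**
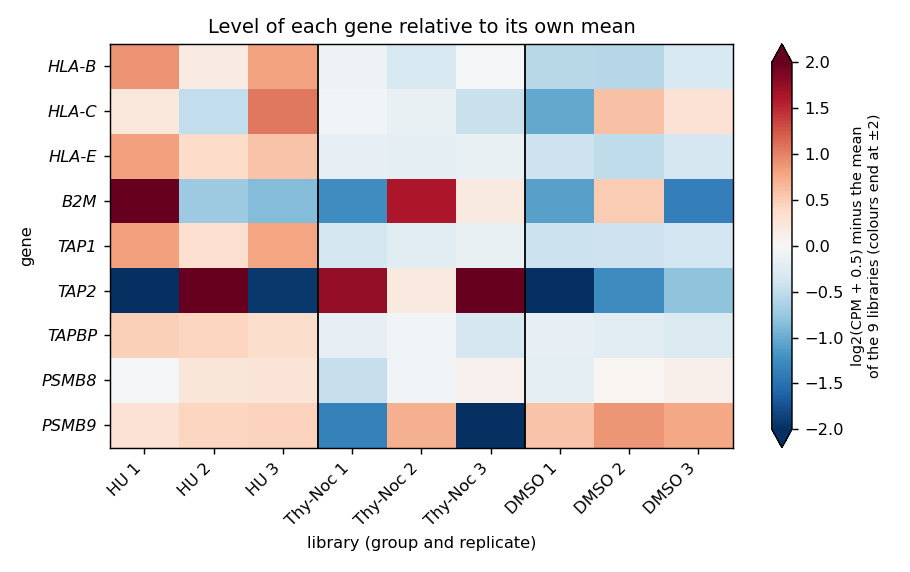
Colours give log2(CPM + 0.5) of each gene minus its mean over the 9 libraries, with genes as rows and libraries as columns in the order HU, Thy-Noc, DMSO; red is above and blue below that mean, and the colour scale ends at 2. HLA-B, HLA-E, TAP1 and TAPBP are above their mean in all HU libraries and below it in all others, and the darkest colours are in TAP2, B2M and PSMB9, where libraries of the same group differ.

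Between HU and Thy-Noc, edgeR called 3 of the 9 genes, HLA-E, TAP1 and TAPBP, all higher in HU, where 0.696% of tested genes were called higher and 1.75% in either direction. DESeq2 called 4, HLA-B as well, and 16.1% of all tested genes. HLA-B, HLA-E, TAP1 and TAPBP had every HU library above every Thy-Noc library, a pattern of 12.9% of tested genes, and every HU library above every DMSO library, a pattern of 15.5%. Between Thy-Noc and DMSO none of the 9 genes was called by edgeR, and DESeq2 and limma also called none. In the main edgeR fit none had an unadjusted p under 0.05. Such a p was found for 1 of them with DESeq2 and with limma at pseudocounts of 0.5 and 1 CPM. With edgeR on only the 2 groups compared it was found for 2. Over all genes 0.0353%, or 4, were called in that comparison. HLA-E, TAP1 and TAP2 had every Thy-Noc library above every DMSO library, 3 of 9 genes beside 5.18% of all tested genes. The median log2 fold change of the 9 genes was 1.02 for HU against DMSO, 0.77 for HU against Thy-Noc and 0.16 for Thy-Noc against DMSO, beside 0.018, 0.010 and 0.006 over all tested genes. HU and Thy-Noc are set against the same DMSO libraries, so their folds share those values.

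**Figure D3:**
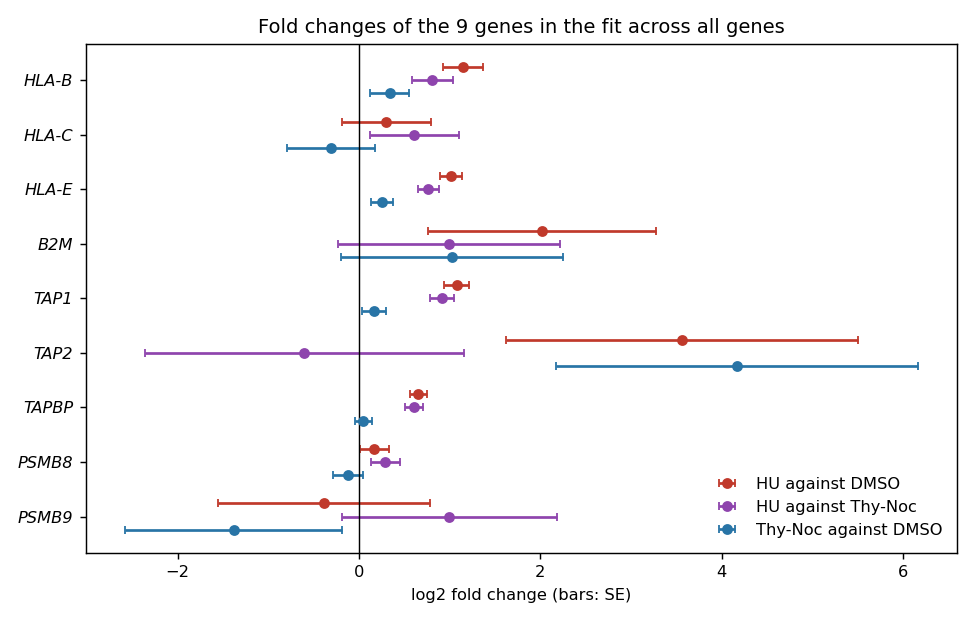
Log2 fold change (x axis) with its standard error for each of the 9 genes (y axis) in the 3 comparisons, by colour. The HU against DMSO values of TAP1, HLA-E, HLA-B and TAPBP, at 1.08, 1.02, 1.15 and 0.65, have short error bars, while those of TAP2 and B2M have bars longer than 1.

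The calls depended on single libraries. Without any one of the 3 DMSO libraries, or without HU replicate 3, none of the 9 genes was called in HU against DMSO, and without HU replicate 1 only HLA-E was. Without any one Thy-Noc library 3 were called, all but HLA-B. Of these 4 genes, HU replicate 2 was the lowest HU library in HLA-B, HLA-E and TAP1, as it was in 45.9% of the 1083 genes with every HU library above all others. Over the 19 alternative settings the log2 fold change for HU against DMSO ran from 0.999 to 1.22 for TAP1, 0.90 to 1.12 for HLA-E, 1.01 to 1.35 for HLA-B and 0.62 to 0.75 for TAPBP. In HU against Thy-Noc no call was left when any one DMSO, Thy-Noc or HU library was left out, other than HLA-E and TAP1 without HU replicate 2.

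Per kilobase of annotated exon the order of levels in DMSO was PSMB8 (109 CPM per kb), HLA-C (97.5), TAP1 (42.7), HLA-E (40.2), TAPBP (37.8), B2M (20.3), HLA-B (4.69), PSMB9 (1.88) and TAP2 (0.252). The divisor joins the exons of all annotated transcripts of a gene, for B2M 6079 bases over 15 transcripts. It can exceed the length of the RNA expressed, so the order between genes depends on the annotation. TAP1, HLA-E, TAPBP and B2M overlapped their neighbours in that order, PSMB8 overlapped HLA-C, and HLA-C stood above TAP1. HLA-B, PSMB9 and TAP2 did not overlap their neighbours in that order. In HU the order was PSMB8 (123), HLA-C (119.9), TAP1 (90.1), B2M (82.2), HLA-E (81.5), TAPBP (59.4), HLA-B (10.4), TAP2 (2.98) and PSMB9 (1.43), and the ranges of the first 5 overlapped from each gene to the next, as did those of the last 3. In Thy-Noc the order was PSMB8 (100.4), HLA-C (78.7), HLA-E (47.9), TAP1 (47.8), B2M (41.3), TAPBP (39.0), HLA-B (5.92), TAP2 (4.52) and PSMB9 (0.719). There PSMB8 overlapped HLA-C, HLA-C stood above HLA-E, and HLA-E, TAP1, B2M and TAPBP overlapped from each to the next, with B2M in Thy-Noc replicate 2 (82.2) inside the HLA-C range.

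Tested genes within 150 kb of the TAP1 start had log2 fold changes for HU against DMSO from -3.62 to 3.56. Among them, the class II gene HLA-DQA2 was called higher in HU against DMSO, at a log2 fold change of 1.03 ± 0.20 (SE; edgeR adjusted p = 0.0419). HLA-DOB, a class II peptide-loading modulator, had 0.56 ± 0.16 (SE) and HLA-DMB, another class II loading gene, had -0.32 ± 0.19 (SE), and neither passed the threshold in edgeR. PSMB8-AS1, antisense to PSMB8 and TAP1, stood at 0.152, 0.0130 and 0.429 CPM in HU libraries, 0.929, 0.337 and 1.24 CPM in Thy-Noc libraries and 1.57, 3.58 and 2.26 CPM in DMSO libraries, at -3.62 ± 1.04 (SE) and an edgeR adjusted p of 0.108. It shares 20.6% of the exon bases of PSMB8 and 9.49% of those of TAP1. Its highest level was 3.58 CPM, against at least 203 CPM for TAP1 and 239.7 CPM for PSMB8 in every library. The sources used do not state how the counting treated strand, so reads there could be assigned to either gene.

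**Figure D4:**
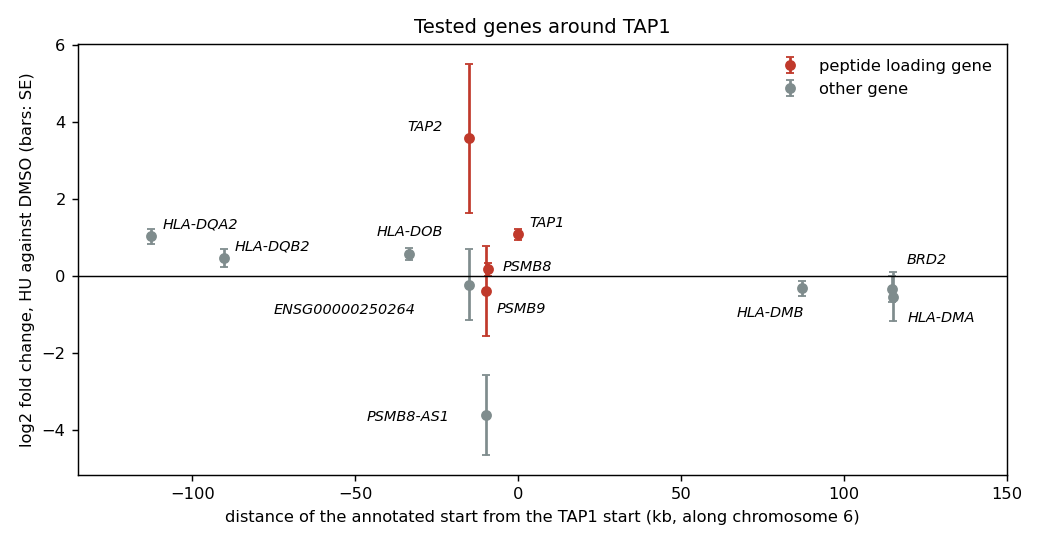
Log2 fold change for HU against DMSO with its standard error (y axis) against the distance of each tested gene's annotated start from that of TAP1 in kb (x axis), for genes within 150 kb; red points are the peptide loading genes. TAP1 lies at 1.08 between PSMB8 at 0.17 and HLA-DMB at -0.32. Starts here are the outermost GENCODE ends, which place PSMB9 (log2 fold change -0.39) at -9.84 kb. The RefSeq start sites of TAP1 and PSMB9 lie 488 bases apart.

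The genes with levels most like the median of the 9 genes over the libraries, by Pearson correlation of log2(CPM + 0.5), were BTG1 (0.984), PELI1 (0.980), JSRP1 (0.977), ACSL1 (0.976) and ABHD8 (0.975). These r values are over 9 libraries, in which the HU libraries stand apart, and are given with no p. BTG1, an antiproliferative gene, had 35.5, 33.2 and 35.9 CPM in HU libraries, 20.5, 20.01 and 19.9 CPM in Thy-Noc libraries and 17.2, 18 and 18.7 CPM in DMSO libraries. Against the median of the other 8 genes, r was 0.924 for TAP1, 0.899 for HLA-E, 0.891 for TAPBP and 0.845 for HLA-B, and it was 0.433 for PSMB8, 0.318 for HLA-C, 0.281 for B2M, 0.028 for PSMB9 and -0.205 for TAP2.

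Further genes of the pathway were read from 7 lists of 101 names, of which 86 are in the table and 79 were tested. In HU against DMSO, 2 of the 79 rose and 1 fell in the edgeR fit. Of all tested genes 2.0% were called higher and 3.56% in either direction, so nothing is read from the count. The median log2 fold change of the 79 was 0.10, beside 0.018 over all tested genes. An unadjusted p under 0.05 was found for 19 of the 79 and for 21.2% of all tested genes, and DESeq2 called 18 of them and 18.8% of all tested genes, so both shares were near the background. In Thy-Noc against DMSO and in HU against Thy-Noc edgeR called none. The unadjusted p was under 0.05 for 5 of them in Thy-Noc against DMSO, where 4.49% of all tested genes had one, and for 18 in HU against Thy-Noc, where 19.4% had one. DESeq2 called 2 of them in Thy-Noc against DMSO, beside 1.58% of all tested genes, and 15 in HU against Thy-Noc, beside 16.1%. IFNGR1, the ligand-binding chain of the interferon gamma receptor, rose, with 369.6, 234.8 and 312 CPM in HU libraries, against 191, 172 and 191 CPM in Thy-Noc libraries and 130.6, 139 and 169 CPM in DMSO libraries. Its log2 fold change against DMSO was 1.06 ± 0.18 (SE, edgeR adjusted p = 0.031), and without 1 library the adjusted p ran from 0.0262 to 0.118. CD48, a surface protein that binds the NK receptor 2B4, rose, with 463, 436 and 378 CPM in HU libraries, against 312, 312 and 314 CPM in Thy-Noc libraries and 261.5, 229 and 274 CPM in DMSO libraries, at 0.74 ± 0.10 (SE, edgeR adjusted p = 0.0225). PSME4, a proteasome activator, fell, with 143.7, 125.9 and 136.5 CPM in HU libraries, against 209, 166.5 and 187 CPM in Thy-Noc libraries and 203.5, 213 and 186 CPM in DMSO libraries, at -0.57 ± 0.11 (SE, edgeR adjusted p = 0.0427). With 1 library left out, the edgeR adjusted p of CD48 ran from 0.0372 to 0.0815 and that of PSME4 from 0.0482 to 0.145. CD48 was no longer called without any one DMSO library or without HU replicate 1. IFNGR1 was called only without HU replicate 2 or Thy-Noc replicate 1, and PSME4 only without Thy-Noc replicate 1.

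Among the loading factors of the endoplasmic reticulum, 0 of 18 tested genes were called in HU against DMSO by edgeR, with 2 at an unadjusted p under 0.05 and 1, SEC11A, by DESeq2; their median log2 fold change was -0.16. CALR, CANX and PDIA3, chaperones of the loading complex, had log2 fold changes of -0.38 ± 0.59, -0.16 ± 0.71 and -0.16 ± 0.27 (SE). ERAP1 and ERAP2, which trim peptides, had -0.95 ± 0.76 and -0.24 ± 1.01 (SE). Of the list's genes with a mean of at least 2 CPM, HSPA5, the chaperone BiP, had the largest, at 1.40 ± 1.48 (SE). TAPBPL and PSME2 did not pass the filter on low values. Of 9 proteasome partners and activators, with a median of 0.099, edgeR called PSME4 alone, with 3 at an unadjusted p under 0.05, and DESeq2 called PSMB7, PSME4 and PSMF1. PSMB10, the third inducible subunit, stood at 63.7, 51.1 and 54.2 CPM in HU libraries, 61.5, 68.2 and 69.3 CPM in Thy-Noc libraries and 51.5, 51.9 and 54.4 CPM in DMSO libraries. The constitutive subunit PSMB7 had 182, 166.5 and 166.6 CPM in HU libraries, 199.1, 195.5 and 230.5 CPM in Thy-Noc libraries and 208, 216 and 203 CPM in DMSO libraries, at -0.28 ± 0.09 (SE, edgeR adjusted p = 0.134; called by DESeq2). None of the 8 cytosolic peptidases was called by edgeR, with 3 at an unadjusted p under 0.05 and 3 by DESeq2 (BLMH, NLN and NRDC), of which limma called BLMH, and their median was -0.10. These counts stand beside 21.2% of all tested genes with such a p and 18.8% called by DESeq2, and nothing is read from them. NRDC, a metalloendopeptidase, had 35.0, 15.04 and 33.5 CPM in HU libraries, against 146, 77.2 and 62.0 CPM in Thy-Noc libraries and 107, 325 and 74.3 CPM in DMSO libraries, at -2.60 ± 0.67 (SE, edgeR adjusted p = 0.0844). PSME1, an interferon-inducible activator chain, had 0.10 ± 0.38 and PSMB6 had 0.70 ± 0.86 (log2, SE).

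Of 26 tested class I transcription factors and interferon pathway genes, edgeR called IFNGR1 alone, with 7 at an unadjusted p under 0.05, and their median log2 fold change was 0.17. DESeq2 called 8 (CIITA, RFXAP, NFYA, NFYC, IRF2, IRF9, IFNGR1 and IFNGR2), and limma called IRF9, IFNGR1 and IFNGR2. Over all tested genes, edgeR called 3.56%, 21.2% had such a p and DESeq2 called 18.8%. With pseudocounts of 0.1, 0.5 and 1 CPM, limma called 546, 562 and 573 of the 11346 tested genes. Nothing is read from these counts. NLRC5, the class I transactivator, had 10.3, 11.6 and 6.07 CPM in HU libraries, against 17.9, 19.8 and 1.05 CPM in Thy-Noc libraries and 8.84, 7.001 and 18.5 CPM in DMSO libraries, so its groups overlapped. CIITA, the class II transactivator, had 7.07, 4.56 and 3.56 CPM in HU libraries, against 10.04, 0.0389 and 1.26 CPM in Thy-Noc libraries and 0.672, 0.485 and 0.191 CPM in DMSO libraries, at 3.49 ± 1.53 (SE, edgeR adjusted p = 0.248). RFX5, which binds the conserved promoter boxes, was also overlapping, at a log2 fold change of -0.02 ± 0.25 (SE). IRF1, which carries interferon signals to these promoters, had a log2 fold change of 0.96 ± 0.67 (SE). IFNGR2, the second chain of the interferon gamma receptor, had 111.5, 96.6 and 105.1 CPM in HU libraries, against 87.6, 75.6 and 68.3 CPM in Thy-Noc libraries and 55.4, 59.5 and 75.7 CPM in DMSO libraries, at 0.72 ± 0.15 (SE, edgeR adjusted p = 0.0526). The 11 tested genes of class I turnover and silencing gave no call by edgeR, with 3 at an unadjusted p under 0.05 and 2 by DESeq2 (SUSD6 and SYVN1), again beside 21.2% and 18.8% of all tested genes. EZH2, a silencing methyltransferase, had 1.27 ± 0.93 (log2, SE). Among the 5 tested genes of the list of NK receptor ligands, CD48 alone was called, by edgeR, DESeq2 and limma. Over all tested genes edgeR called 3.56% and DESeq2 18.8%, and nothing is read from this count.

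In Thy-Noc against DMSO the largest log2 fold changes of the lists, none of them called by edgeR, were 4.19 ± 1.21 for P4HB, 7.32 ± 1.80 for PSMF1, 2.12 ± 1.21 for LAP3, -4.11 ± 2.17 for CREB1, 0.47 ± 0.27 for TMEM129, 0.94 ± 2.20 for MICB and 2.78 ± 1.71 for HLA-F (SE). In HU against Thy-Noc they included -3.09 ± 1.15 for P4HB, 2.95 ± 1.59 for POMP, -1.77 ± 0.65 for NRDC, 3.07 ± 2.07 for CREB1, 1.37 ± 0.93 for EZH2 and -0.76 ± 2.19 for MICB (SE), likewise with no call by edgeR. DESeq2 called P4HB in both of these comparisons and NRDC in HU against Thy-Noc. PSMF1, an inhibitor of the proteasome, had 231, 220.1 and 88.1 CPM in HU libraries and 0.642, 108 and 246 CPM in Thy-Noc libraries, against 0.748, 0.709 and 0.763 CPM in DMSO libraries, and Thy-Noc replicate 1 alone of the treated libraries was at the DMSO level. Without that library PSMF1 was called in HU and in Thy-Noc against DMSO, and DESeq2 called it in both comparisons with all libraries.

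HLA-F, a class I gene outside the classical set, had 92.0, 49.9 and 128 CPM in HU libraries, against 36.9, 73.1 and 86.8 CPM in Thy-Noc libraries and 28.1, 0.308 and 0.178 CPM in DMSO libraries. No call was made for it by edgeR, DESeq2 or limma in any of the 3 comparisons, and it differed by more than 10-fold between DMSO libraries. Without DMSO replicate 1 it was called in HU against DMSO and in Thy-Noc against DMSO.

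**Figure D5:**
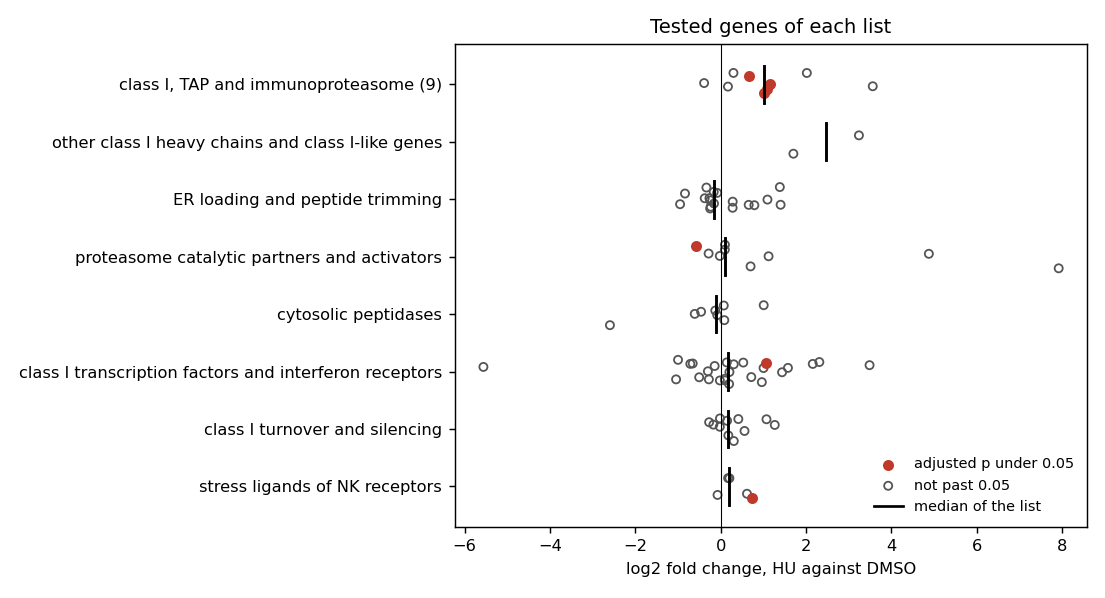
Log2 fold change for HU against DMSO of each tested gene (x axis) in the 9 genes described and in 7 pathway lists (y axis); filled red points passed an adjusted p of 0.05, open points did not, and the black bar is the list's median. The 9 genes have a median of 1.02, and CD48, IFNGR1 and PSME4 are the called genes outside them.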

How the data were processed

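A stranded mRNA kit was used for all 9 Raji libraries, per the labels' protocols. FastQC, Trim Galore, STAR, DESeq2 and GRCh38 appear in the submitters' processing notes without roles; the counting step and its strand use were not stated in the sources used. The deposited table is called CPM, but its values are whole numbers of at least 1 with unequal totals, so the authors' values were handled like estimated counts. Gene positions came from GENCODE release 29.

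Genes reaching a CPM of 1 or more in 3 or more libraries (11346) were scaled by TMM and fitted with edgeR 4.0.16 (R 4.3.3). A quasi-likelihood fit of the 3 group means over all 9 libraries (6 residual degrees of freedom) tested each pair of groups on 2 sides, with Benjamini-Hochberg adjustment over all tested genes and a threshold of 0.05. The script was tested on simulated data with the same spread for every gene, so that test gives no error rates for these libraries. Each standard error is the log2 fold change over the root of F. Alternatives were other scalings, filters, DESeq2 1.42.0, limma 3.58.1, only the 2 groups compared, a replicate block and leaving out each library.

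The 9 genes and the lists were chosen with earlier results of these data known. Named genes are those 9, list genes called with a mean of at least 2 CPM (at most 5 per list and comparison), the largest uncalled one of a list with no call, and fixed names, some of which are not reported here. HLA-DQA2, HLA-DOB, HLA-DMB, PSMB8-AS1, IFNGR2, SEC11A, BLMH, NLN, SUSD6, SYVN1, RFXAP, NFYA, NFYC, IRF2, IRF9 and HLA-H were named after their values were seen.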

Additional observations from a re-analysis of the deposited data

How the results depend on the processing

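For HU against DMSO, 404 genes were called in all, of which 227 were higher, and with total-count scaling 373, of which 271 were higher. Other settings gave 220 (no filter), 2135 (DESeq2), 51 (only the 2 groups compared) and, without 1 library, 21 to 318. Of the 9 class I genes 4 were called; 0 were with only the 2 groups compared, and 0 to 4 without 1 library. Of pathway genes 3 were called, against 5 with CPM of at least 5, 18 with DESeq2, 6 with limma at each pseudocount, 1 with only the 2 groups and 0 to 4 without 1 library. For HU against Thy-Noc, 199 genes were called, of which 79 were higher, and with total-count scaling 157, of which 111 were higher. Other settings gave 64 (no filter), 313 (CPM of at least 5), 1826 (DESeq2), 311, 326 and 346 (limma with pseudocounts of 0.1, 0.5 and 1 CPM), 18 (only the 2 groups) and 1 to 103 without 1 library. The 3 called class I genes went to 0 with no filter, 0 with only the 2 groups and 0 to 2 without 1 library, and the 0 called pathway genes to 1 with total-count scaling, no filter or limma with a pseudocount of 1, and to 15 with DESeq2. For Thy-Noc against DMSO, 4 genes were called, against 179 with DESeq2, 7, 12 and 12 with limma and 5 to 13 without 1 library; pathway calls were 0, against 2 with DESeq2 and 0 to 1 without 1 library. The cause of these shifts was not tested. Total-count scaling moved the median of all genes to 0.12 for HU against DMSO and 0.156 for HU against Thy-Noc. No log2 fold change among 570 alternative values was called and then reversed, 92 lost the call and 1 gained it. Another 13 stayed uncalled and moved by more than the standard error of the main fit. The remaining 464 stayed on their side of the threshold. Only values with a call could count as reversed. Between uncalled values the sign changed in at least 1 setting for HLA-C, B2M and TAP2. In Thy-Noc against DMSO it also did for TAPBP and PSMB8.

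With the replicate number as a block, 9 genes were called for HU against DMSO and 0 for the other comparisons, and 0 of the class I genes and 0 pathway genes in each. Libraries with the same number deviated together with correlations of -0.035 to 0.04. Not every library correlated best with one of its own number. Between HU and Thy-Noc the same-number values were 0.04, 0.039 and 0.029, and the different-number values ran from -0.033 to -0.006. Between DMSO and each treated group, same-number and different-number values overlapped. Correlations this weak do not show whether the numbers pair the samples. The lowest levels rest on few counts, such as PSMB9 at 0.0518 CPM, or 5 counts, in Thy-Noc replicate 3. That library was the deepest of its group, at 105362232 counts in total.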

Other observations

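HLA-H, a class I pseudogene named here after its values were seen, had 23.1, 24.1 and 23.6 CPM in HU libraries, against 15.7, 16.9 and 15.2 CPM in Thy-Noc libraries and 13.6, 13.1 and 14.3 CPM in DMSO libraries. Its log2 fold change against DMSO was 0.79 ± 0.12 (SE, edgeR adjusted p = 0.0245). Class I genes and pseudogenes share near-identical sequence, so its reads may belong to other class I genes, which was not tested.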
